A study of Homo sapiens with 6 samples.

Results

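The genes described here encode the subunits of oxidative phosphorylation, the 5 protein complexes of the mitochondrial inner membrane that oxidise NADH and succinate and make ATP. Membership rests on the gene symbol and on no measured value: symbols beginning NDUFA, NDUFB, NDUFC, NDUFS or NDUFV and a number, SDHA to SDHD, and symbols beginning UQCR, COX4 to COX8 or ATP5. Of the 17039 genes in the expression matrix, 84 met this rule, 37 in complex I, 4 in complex II, 9 in complex III, 14 in complex IV and 20 in complex V. The symbols do not match the complexes exactly. NDUFA4 sits in complex IV in current models, COX7A2L is a factor that joins complexes III and IV into supercomplexes, ATP5IF1 is an inhibitor of complex V, and ATP5MF-PTCD1 is a read-through gene.

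MDA-MB-231 is a triple-negative human breast cancer cell line, and 231-BR is a derivative of it selected for its ability to colonise the brain. Polyadenylated RNA was sequenced from 3 libraries of each line, and the gene levels are given as FPKM, the fragments counted for a gene scaled by the length of its transcript and by the number mapped in the library. Both lines grew in DMEM with serum and antibiotics, but the 231-BR medium also held the selection drug G418, so the line and its medium cannot be told apart. The 231-BR cells came as a gift line, and the study describes the 3 libraries of a line as parallel replicates and the series text as independent samples, neither saying whether they were separate cultures, so the p-values below measure the spread between these libraries only. The labelled cell type was checked first. VIM, the mesenchymal filament gene that marks this line, stood at 2553 ± 14.8 FPKM in 231-BR and 2306 ± 28.7 in MDA-MB-231 libraries (mean ± SD, n = 3 each), while the epithelial cadherin gene CDH1 and the progesterone receptor gene PGR stayed under 0.1 FPKM in every library, and the oestrogen receptor gene ESR1 reached at most 1.08 FPKM. The other markers listed for this line differed between the lines at an adjusted p under 0.05 by limma: ERBB2, a growth factor receptor gene, stood at 9.88 against 4.95 FPKM (log2 fold change 0.98), the epithelial adhesion gene EPCAM at 8.70 against 5.06 FPKM (0.77), EGFR at 91.2 against 33.3 FPKM (1.45) and CD44 at 181.2 against 250.6 FPKM (-0.47). Of 9 listed markers of immune, endothelial and brain cells, only CD68, MBP and PECAM1 passed a mean of 0.1 FPKM. Those 3 were higher in 231-BR cells, at 82.9 against 63.5, 21.0 against 13.6 and 0.42 against 0.18 FPKM, and their part in the results was not tested, while the defining immune markers PTPRC and CD3E, the endothelial marker CDH5 and the astrocyte markers GFAP and AQP4 reached at most 0.07 FPKM and the neuronal marker RBFOX3 0.16 FPKM. Summed FPKM ran from 465020 to 472007 in the 231-BR libraries and from 486937 to 496420 in the MDA-MB-231 libraries. No read counts were among the values, so sequencing depth is unknown.

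Complex I (NADH dehydrogenase) and complex II (succinate dehydrogenase) pass electrons to ubiquinone, complex III passes them on to cytochrome c, and complex IV (cytochrome c oxidase) hands them to oxygen. Complexes I, III and IV pump protons as they do so, and complex V (ATP synthase) lets the protons flow back and makes ATP. Most subunits are encoded in the nucleus, and a smaller set of core subunits is encoded in mitochondrial DNA, so each complex except complex II is built from both genomes. The 13 mitochondrially encoded subunits were not analysed here. Nuclear respiratory factor 1, the ETS-family factor GABP, YY1 and the oestrogen-related receptors are transcription factors known for sites in the promoters of these genes. For that reason 4 short motifs were looked for on both strands of the RefSeq promoters (GRCh38.p14, 250 bases before to 50 after the start): GCGCA, any base and GCGC in a row for NRF1, CCGGAAG for ETS factors, AAGATGGCG for YY1 and TCAAGGTCA for oestrogen-related receptors. None of the 4 motifs contains another. In the promoters printed with their genes below, the capitals mark matches to these motifs, a match on the other strand appearing as its reverse complement.

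Expression of the subunits was lower in 231-BR than in MDA-MB-231 cells for most members, by modest amounts. Of the 84 members, 79 had a mean of at least 0.1 FPKM and were tested, and 67 of them differed between the lines at an adjusted p under 0.05 (limma on log2 FPKM, adjusted over all 13465 genes tested). That share, 84.8%, is read against a background in which 77.3% of all genes tested differed. Among genes with a mean of at least 10 FPKM 84.3% did, near the share of the members. The direction was uneven: 47 members (59.5%) were lower in 231-BR cells, where 32.9% of all genes were, and 20 members (25.3%) were higher, where 44.4% of all genes were. The remaining 12 did not pass the test. Among the 6309 genes with a mean of at least 10 FPKM, a range that holds 78 of the members, 42.1% were lower and 42.1% higher, and with quantile normalization 42.7% of all genes were lower and 35.8% higher, with 47 members lower and 23 higher. The median log2 fold change of the members was -0.24, beside 0.077 over all genes tested and -0.0021 over those 6309 genes, and the gap to the median of all genes was -0.31, or -0.12 with quantile normalization. In bulk RNA, fewer cells carrying a transcript and less transcript per cell cannot be told apart.

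Past 1.5-fold there were 15 members (19.0%), against a background of 31.9% of all genes and of 21.0% of the genes with a mean of at least 10 FPKM, so that the share was near that of genes of like level. Of the 15, 12 (15.2%) were lower in 231-BR cells, where 10.9% of all genes and 8.5% of those at 10 FPKM were, and 3 (3.8%) were higher, where 21.0% and 12.5% were. With the stricter rule of an absolute log2 fold change over 1 and at least 1 FPKM in both lines, 1 member, NDUFB8, was called, where 6.45% of all genes were. For 66 of the 79 members every library of one line lay above every library of the other, which was so for 78.4% of all genes. It was also so for 5392 of the 6309 genes with a mean of at least 10 FPKM. Replicates were tight, with a median SD over members of 0.045 in 231-BR and 0.052 in MDA-MB-231 cells on the log2 scale, and differences well below 1.5-fold passed the test.

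**Figure D1:**
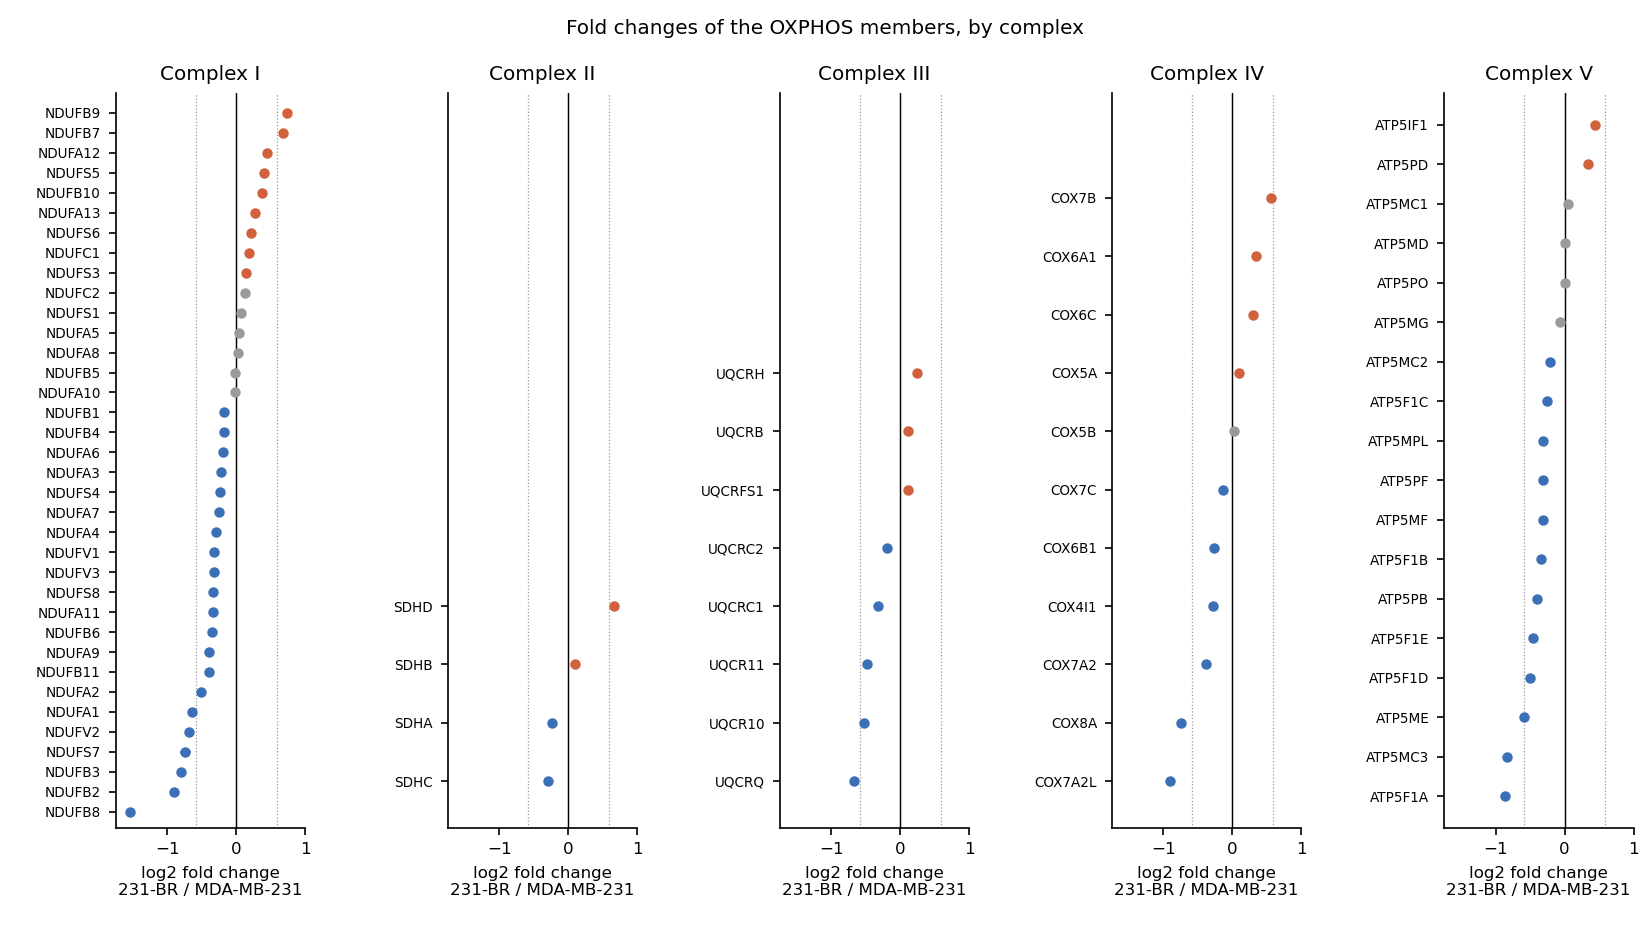
Log2 fold change (x axis, 231-BR over MDA-MB-231) of the members tested, in 1 panel per complex, with bars of 1 SE that the points mostly cover; orange marks members called higher in 231-BR cells, blue those called lower and grey those not called, and dotted lines mark 1.5-fold. NDUFB8 lies farthest from 0 at -1.54, and ATP5MGL, at a mean of 0.13 FPKM, and a member not reported here are left out.

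As a share of all FPKM in a library, the 84 members together made up 1.86% ± 0.025 of it in 231-BR and 1.96% ± 0.027 in MDA-MB-231 libraries (mean ± SD, n = 3 each). Complex V contributed most of that gap, at 0.613% ± 0.0065 in 231-BR and 0.703% ± 0.014 in MDA-MB-231 cells, with no overlap between libraries. The complex II share went the other way, at 0.0720% ± 0.00034 against 0.0595% ± 0.00044, also without overlap. Within complex II, SDHD stood at 148.9 against 93.9 FPKM and SDHB at 107.1 against 100.4 FPKM, while SDHA and SDHC were lower. Its median log2 fold change was -0.072, so the higher share does not describe all of its genes. The complex I share ran from 0.492 to 0.508% in 231-BR and from 0.509 to 0.525% in MDA-MB-231 libraries, which nearly met, and the shares of complexes III and IV overlapped between the lines.

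Complex I is the largest of the complexes, an L-shaped enzyme with a peripheral arm that oxidises NADH and a membrane arm that pumps protons. Its 37 members gave 22 lower (59.5%), 9 higher (24.3%) and 6 not called, with a median log2 fold change of -0.21. Of all genes tested, 32.9% were lower and 44.4% higher. The 7 core members, which include those that carry the flavin and the iron-sulfur clusters, had 5 lower, 1 higher and 1 not called. Among the 30 accessory members, which surround and stabilise the core, 17 were lower, 8 were higher and 5 were not called, with a median of -0.18.

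NDUFB8, an accessory subunit of the membrane arm, differed most of all members. It measured 34.6, 36.9 and 39.9 FPKM in the 231-BR libraries and 104.0, 108.1 and 112.7 FPKM in the MDA-MB-231 libraries. Every 231-BR library was thus far below every MDA-MB-231 library, with a log2 fold change of -1.54 (SE 0.049, adjusted p = 1.7e-09). The gene lies on the minus strand at chr10:100523740-100530000 (GRCh38, GENCODE 29) and overlaps HIF1AN on the other strand, whose log2 fold change was 0.30. NDUFB8 also overlaps AL133352.1 on the same strand, and 2 annotated pseudogenes carry its name. Its RefSeq promoter is shown as that of the member with the largest difference, and holds none of the 4 motifs (chr10:100529924-100530173, GRCh38.p14, minus strand).
NDUFB8: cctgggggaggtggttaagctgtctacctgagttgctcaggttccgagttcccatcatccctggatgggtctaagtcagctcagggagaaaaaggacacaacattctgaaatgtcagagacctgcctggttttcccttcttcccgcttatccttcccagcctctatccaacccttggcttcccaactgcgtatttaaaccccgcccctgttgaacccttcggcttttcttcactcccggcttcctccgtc

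NDUFB2 and NDUFB3 are further accessory subunits of the membrane arm. NDUFB2 measured 38.3, 44.7 and 41.4 FPKM in 231-BR and 77.7, 78.8 and 76.3 FPKM in MDA-MB-231 libraries, a log2 fold change of -0.91 (SE 0.048, adjusted p = 5.6e-08). For NDUFB3 the values were 42.8, 40.8 and 46.0 FPKM against 76.2, 73.2 and 76.7 FPKM, or -0.80 (SE 0.042, adjusted p = 5.3e-08). Both genes overlap others that were also lower in 231-BR cells, ADCK2 at -0.60 and BRAF at -0.43 for NDUFB2 and FAM126B at -0.73 for NDUFB3, and whether reads were shared with them was not tested. NDUFA1, a small membrane-arm subunit encoded on the X chromosome, had 45.9, 47.7 and 52.5 FPKM in 231-BR and 71.6, 77.9 and 78.8 FPKM in MDA-MB-231 libraries, and a log2 fold change of -0.64 (SE 0.052, adjusted p = 1.3e-06). None of these 3 genes overlapped between the lines.

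Core subunits passed 1.5-fold as well. NDUFS7, which holds the iron-sulfur cluster closest to ubiquinone, had 24.3, 30.1 and 28.1 FPKM in 231-BR and 41.2, 47.7 and 49.0 FPKM in MDA-MB-231 libraries, and a log2 fold change of -0.74 with the widest SE of these members (0.081, adjusted p = 1.4e-05). NDUFV2, an iron-sulfur subunit beside the NADH site, had 69.7, 75.4 and 74.4 FPKM against 116.8, 118.1 and 117.1 FPKM, or -0.68 (SE 0.031, adjusted p = 1.8e-08). In both genes every 231-BR library was the lower. Its partner NDUFV1, the flavin subunit that binds NADH, differed less, at -0.32, and so did NDUFS8 (-0.33), an iron-sulfur subunit on the path of electrons to ubiquinone.

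The 9 members of complex I that were higher in 231-BR cells included a pair past 1.5-fold, both accessory subunits of the membrane arm. NDUFB9 had 54.4, 55.5 and 58.4 FPKM in 231-BR and 34.1, 33.2 and 33.4 FPKM in MDA-MB-231 libraries, a log2 fold change of 0.74 (SE 0.031, adjusted p = 1.2e-08). It overlaps TATDN1 and MTSS1 on the other strand, which were higher in 231-BR cells as well, at 0.90 and 1.19. NDUFB7 had 135.0, 139.2 and 131.8 FPKM against 80.0, 83.5 and 89.3 FPKM, or 0.68 (SE 0.039, adjusted p = 9.7e-08). All 231-BR libraries lay above all MDA-MB-231 libraries for both. NDUFA12 (0.45), NDUFS5 (0.41), NDUFB10 (0.37), NDUFA13 (0.27), NDUFS6 (0.21), NDUFC1 (0.18) and NDUFS3 (0.15) were higher by less, and the libraries of NDUFC1 overlapped, with its call lost without 231-BR replicate 2 (0.16, adjusted p = 0.051). Both NDUFC1 (0.10, adjusted p = 0.13) and NDUFS3 (0.066, adjusted p = 0.063) lost the call with median-of-ratios scaling.

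Subunits of the same membrane arm therefore differed in opposite directions. Within each library, the ratio of NDUFB8 to NDUFB9 FPKM was 0.63, 0.66 and 0.68 in 231-BR and 3.05, 3.25 and 3.38 in MDA-MB-231 cells. NDUFB8 was the more abundant transcript in every MDA-MB-231 library and NDUFB9 in every 231-BR library. NDUFS5, a small intermembrane-space subunit, was the most abundant complex I transcript in both lines, at 209.0, 217.6 and 217.4 FPKM in 231-BR and 162.4, 158.2 and 164.9 FPKM in MDA-MB-231 libraries. The least abundant was NDUFA5, a peripheral-arm subunit, at 14.9, 14.4 and 15.5 FPKM against 14.3, 14.6 and 14.8 FPKM, which overlapped (0.035, adjusted p = 0.42). NDUFB5, another membrane-arm subunit, was closest to 0: 80.3, 79.8 and 79.4 FPKM against 80.5, 79.7 and 81.7 FPKM (-0.015, SE 0.022, adjusted p = 0.56). With median-of-ratios scaling it was called lower (-0.098, adjusted p = 0.0026).

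Complex II links the tricarboxylic acid cycle to the electron transport chain, and its 4 subunits are all encoded in the nucleus. All 4 differed between the lines, 2 in each direction, and the libraries did not overlap for any of them. Of all genes tested, 77.3% differed and 78.4% had libraries that did not overlap. Among genes with a mean of at least 10 FPKM, 84.3% differed. SDHD, which with SDHC anchors the enzyme in the membrane and binds ubiquinone, had 147.1, 148.3 and 151.2 FPKM in 231-BR and 93.0, 96.3 and 92.4 FPKM in MDA-MB-231 libraries, a log2 fold change of 0.66 (SE 0.025, adjusted p = 4.8e-09). Its anchor partner SDHC had 31.2, 31.4 and 30.7 FPKM against 39.2, 37.3 and 38.5 FPKM, or -0.30 (SE 0.029, adjusted p = 5.3e-06). The ratio of SDHD to SDHC FPKM was accordingly 4.79 ± 0.12 in 231-BR and 2.45 ± 0.11 in MDA-MB-231 libraries (mean ± SD, n = 3 each).

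The catalytic subunits of complex II differed by less. SDHA, the flavoprotein that oxidises succinate, had 50.01, 52.9 and 50.7 FPKM in 231-BR and 59.2, 60.0 and 61.8 FPKM in MDA-MB-231 libraries (-0.24, SE 0.03, adjusted p = 4e-05). SDHB, the iron-sulfur subunit, had 108.0, 107.7 and 105.5 FPKM against 96.3, 101.9 and 103.0 FPKM (0.093, SE 0.029, adjusted p = 0.013), and this call was lost with median-of-ratios scaling (0.010, adjusted p = 0.76). SDHD was the most abundant complex II transcript in 231-BR cells and SDHB in MDA-MB-231 cells, while SDHC was the least abundant in both. SDHD lies on the plus strand at chr11:112086773-112120013 and overlaps TIMM8B on the other strand, whose log2 fold change was 0.17. SDHD also overlaps AP002884.3 on the same strand, and 3 annotated pseudogenes carry its name. Its promoter (chr11:112086623-112086872, GRCh38.p14, plus strand) is shown because it was the only member promoter with NRF1, ETS and oestrogen-related receptor motifs, the last of these beginning at position 11 after the start, outside the printed bases.
SDHD: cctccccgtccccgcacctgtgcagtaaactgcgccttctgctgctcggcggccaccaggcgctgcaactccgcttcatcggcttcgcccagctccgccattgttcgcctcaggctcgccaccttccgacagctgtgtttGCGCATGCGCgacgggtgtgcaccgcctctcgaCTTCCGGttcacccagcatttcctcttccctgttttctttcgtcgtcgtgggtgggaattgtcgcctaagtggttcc

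Complex III, the cytochrome bc1 complex, had 8 members tested. All differed, where 77.3% of all genes did, 5 lower and 3 higher, with a median log2 fold change of -0.26. The lower ones were led by the small subunits. UQCRQ, a small subunit beside cytochrome b, had 35.9, 38.2 and 39.1 FPKM in 231-BR and 58.1, 60.4 and 61.9 FPKM in MDA-MB-231 libraries, a log2 fold change of -0.67 (SE 0.037, adjusted p = 8e-08). UQCR10 followed at -0.53 and UQCR11 at -0.49, then the large core proteins UQCRC1 at -0.32 and UQCRC2 at -0.20. The Rieske iron-sulfur protein UQCRFS1 (0.11), UQCRB (0.12) and UQCRH (0.25) were higher in 231-BR cells, and the first pair lost the call with median-of-ratios scaling, at 0.027 and 0.033 (adjusted p = 0.42 and 0.31).

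Among the complex III transcripts, UQCRH, which encodes the hinge protein between cytochrome c1 and cytochrome c, was the most abundant, at 207.9, 220.4 and 222.5 FPKM in 231-BR and 183.7, 182.7 and 181.7 FPKM in MDA-MB-231 libraries. UQCR11 was the least abundant of those tested in 231-BR cells, at 28.7, 31.1 and 30.0 FPKM against 40.04, 42.1 and 44.1 FPKM. In MDA-MB-231 cells that place went to UQCRB, at 32.6, 30.8 and 31.1 FPKM against 34.2, 34.2 and 34.0 FPKM in 231-BR cells. The UQCRH-like gene UQCRHL stayed under the filter, listed at 0 in 4 of 6 libraries and at 0.18 FPKM at most. The UQCR11 promoter (chr19:1605463-1605712, GRCh38.p14, minus strand) is shown because it held the NRF1 and ETS motifs in more than 1 copy each.
UQCR11: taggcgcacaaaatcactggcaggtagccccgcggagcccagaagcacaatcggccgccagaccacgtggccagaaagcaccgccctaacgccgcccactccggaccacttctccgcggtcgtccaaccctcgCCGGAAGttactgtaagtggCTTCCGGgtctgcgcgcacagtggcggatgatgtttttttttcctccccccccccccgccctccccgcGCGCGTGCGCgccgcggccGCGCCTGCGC

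Complex IV had 11 of its 14 members tested. Of these, 6 (54.5%) were lower, 4 (36.4%) higher and 1 not called, beside 32.9% lower and 44.4% higher of all genes. The median log2 fold change was -0.14, or -0.20 when NDUFA4 is counted in complex IV. COX7A2L, the supercomplex factor, had 46.4, 47.0 and 45.5 FPKM in 231-BR and 88.4, 88.9 and 82.1 FPKM in MDA-MB-231 libraries, a log2 fold change of -0.90 (SE 0.034, adjusted p = 5.3e-09). COX8A, a very small membrane subunit, had 283.1, 295.7 and 288.8 FPKM against 470.9, 502.5 and 487.2 FPKM, or -0.75 (SE 0.028, adjusted p = 5.5e-09). Both were the lower in every 231-BR library. COX8A ranked second among the members by level in MDA-MB-231 cells and sixth in 231-BR cells, while COX7A2L was the least abundant complex IV member tested in both lines.

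Smaller differences ran both ways across the other complex IV subunits. COX7A2 (-0.39), COX4I1 (-0.29), COX6B1 (-0.27) and COX7C (-0.14) were lower in 231-BR cells. COX7C, a subunit of the membrane part of the enzyme, was the most abundant member of all in MDA-MB-231 cells, at 512.5, 524.3 and 517.4 FPKM against 461.4, 480.6 and 468.2 FPKM in 231-BR cells. COX6A1, a regulatory subunit, took that place in 231-BR cells, at 477.5, 499.4 and 501.9 FPKM against 380.5, 407.0 and 382.9 FPKM (0.34, SE 0.031, adjusted p = 3.6e-06). The order of the most abundant transcripts thus changed between the lines, without overlap for either gene.

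COX7B, another small subunit, came nearest to 1.5-fold among the higher members of complex IV, with 278.5, 300.7 and 290.8 FPKM in 231-BR and 197.0, 190.8 and 201.3 FPKM in MDA-MB-231 libraries (0.56, SE 0.032, adjusted p = 9.1e-08). COX6C was higher by 0.30, and COX5A by 0.098 with overlapping libraries (adjusted p = 0.022, but 0.065 to 0.092 when replicate 1 or 2 of either line was left out and 0.70 with median-of-ratios scaling, at 0.015). COX5B, which binds zinc on the matrix side, was closest to 0, at 152.2, 160.1 and 158.7 FPKM against 145.2, 153.1 and 165.0 FPKM (0.026, SE 0.042, adjusted p = 0.60). It was called higher with quantile normalization (0.11, adjusted p = 0.017) and with libraries rescaled to a common sum (0.093, adjusted p = 0.034). With median-of-ratios scaling it stood at -0.057 and was not called. The tissue-restricted isoforms were nearly silent in both lines. COX4I2 was listed at 0 in 5 of 6 libraries, and COX6B2 and COX7A1 reached at most 0.17 and 0.06 FPKM, while COX6A2 and COX8C were not analysed here. Their shares of the FPKM of each isoform pair stayed under 0.1% in every library and gave exact 2-sided permutation p-values of 1.0 for COX4I2, 0.9 for COX6B2 and 0.1 for COX7A1, where 0.1 is the smallest that 3 libraries against 3 allow.

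Complex V had the lowest median, at -0.31 over 19 members tested. Of these, 12 (63.2%) were lower, 2 (10.5%) higher and 5 not called, beside 32.9% lower and 44.4% higher of all genes. All 5 members of F1, the catalytic part on the matrix side, were lower in 231-BR cells, from -0.25 to -0.86. Their median was -0.46, and this direction held with every scaling tried. ATP5F1A, the alpha subunit of the catalytic ring, had 161.3, 163.4 and 161.1 FPKM in 231-BR and 289.7, 293.8 and 297.6 FPKM in MDA-MB-231 libraries, a log2 fold change of -0.86 (SE 0.021, adjusted p = 2.5e-10). ATP5F1B, the beta subunit that alternates with it in equal number and carries the catalytic sites, had 364.6, 374.5 and 367.8 FPKM against 463.6, 466.4 and 469.5 FPKM, or -0.34 (SE 0.02, adjusted p = 1.4e-07). The 231-BR libraries were below the MDA-MB-231 libraries for each gene, but by unequal amounts.

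Because the alpha and beta subunits are used in equal number, their ratio within each library was also taken. ATP5F1A stood at 0.439 ± 0.0032 of the ATP5F1B FPKM in 231-BR and at 0.6295 ± 0.0045 in MDA-MB-231 libraries (mean ± SD, n = 3 each). The remaining F1 genes, ATP5F1D (-0.49), ATP5F1E (-0.46) and ATP5F1C (-0.25), encode the parts of the central stalk. ATP5F1A lies on the minus strand at chr18:46080248-46104334 and overlaps HAUS1 on the other strand, whose log2 fold change was -0.59, and 7 annotated pseudogenes carry its name, so reads shared with either cannot be told apart here.

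The membrane-bound Fo part of ATP synthase, which carries the protons, was less uniform. Its rotor ring is made of subunit c, whose identical mature protein is encoded by ATP5MC1, ATP5MC2 and ATP5MC3. ATP5MC3 had 28.2, 30.1 and 28.3 FPKM in 231-BR and 51.0, 51.6 and 52.1 FPKM in MDA-MB-231 libraries, a log2 fold change of -0.83 (SE 0.032, adjusted p = 5.9e-09). ATP5MC2, the most abundant of the 3, was lower by less (-0.21), and ATP5MC1 did not pass the test (0.049, adjusted p = 0.21). ATP5MC1 did pass without 231-BR replicate 1 (0.084, adjusted p = 0.029). It also passed with quantile normalization (0.14, adjusted p = 0.0014) and with libraries rescaled to a common sum (0.12, adjusted p = 0.0029). With median-of-ratios scaling it stood at -0.034 and was not called. The 3 genes together summed to 453.5 ± 9.41 FPKM in 231-BR and 511.9 ± 12.6 FPKM in MDA-MB-231 libraries, and ATP5MC3 supplied 6.37% ± 0.30 and 10.1% ± 0.15 of that sum (mean ± SD, n = 3 each). ATP5MC3 was the least abundant complex V member with more than 10 FPKM and ATP5F1B the most abundant, in both lines.

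ATP5ME, subunit e, which helps ATP synthase form dimers, was just past 1.5-fold, with 73.3, 74.7 and 83.5 FPKM in 231-BR and 111.1, 115.3 and 120.9 FPKM in MDA-MB-231 libraries (-0.59, SE 0.049, adjusted p = 1.7e-06). The stalk and membrane subunits ATP5PB (-0.40), ATP5MF (-0.31), ATP5PF (-0.31) and ATP5MPL (-0.31) were lower as well. The higher members were ATP5PD (0.34), a subunit of the peripheral stalk, and ATP5IF1, the inhibitor that stops ATP synthase from running backwards, which had 118.7, 121.8 and 127.9 FPKM against 85.2, 88.4 and 96.6 FPKM (0.45, SE 0.045, adjusted p = 7.2e-06). ATP5PO, the stalk subunit that confers oligomycin sensitivity, was closest to 0, at 126.6, 132.4 and 133.0 FPKM against 121.2, 130.9 and 137.5 FPKM (0.011, SE 0.042, adjusted p = 0.83). ATP5MGL, at 0.06 to 0.34 FPKM, was tested but not called, and ATP5MF-PTCD1 was listed at 0 in 5 of 6 libraries. The ATP5ME promoter (chr4:674277-674526, GRCh38.p14, minus strand) is shown as the third that held both NRF1 and ETS motifs, the ETS match beginning at position 3 after the start, outside the printed bases.
ATP5ME: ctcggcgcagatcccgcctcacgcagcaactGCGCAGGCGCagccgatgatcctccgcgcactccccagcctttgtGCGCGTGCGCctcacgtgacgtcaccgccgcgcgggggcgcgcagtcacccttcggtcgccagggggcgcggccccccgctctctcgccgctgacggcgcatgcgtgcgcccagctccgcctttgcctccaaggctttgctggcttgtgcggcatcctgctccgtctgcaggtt

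**Figure D2:**
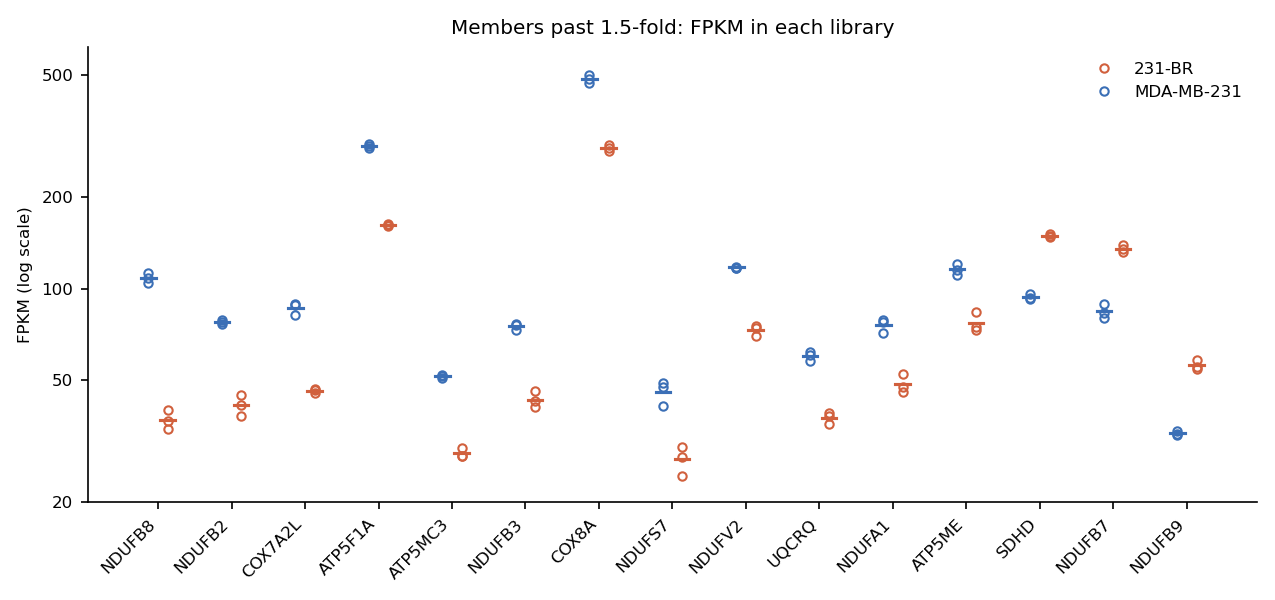
FPKM (y axis, log scale) in each library for the 15 members past 1.5-fold, ordered by log2 fold change, with open circles for the 3 libraries of each line (231-BR orange, MDA-MB-231 blue) and short lines for the line means. The 15 were picked by these same values, and the lines do not overlap for any of them, as for 78.4% of all genes tested. SDHD, NDUFB7 and NDUFB9 at the right are higher in 231-BR cells.

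The NRF1, ETS and YY1 motifs were more frequent among the members than among all genes tested, but did not sort them cleanly by direction. Their frequency among genes with a mean of at least 10 FPKM was not counted. A RefSeq promoter was found for 67 of the 84 members, 66 of them tested, and 37 held at least 1 of the 4 motifs. The NRF1 motif was in 16 of the 66 (24.2%), beside 11.3% of 10920 genes tested and 6.28% of all 27305 promoters, and 11 of the 16 were lower and 3 higher in 231-BR cells, with a median log2 fold change of -0.24 against -0.22 for the 50 without it. YY1 was matched in 8 (12.1%, beside 3.84% and 1.85%), of which 7 were lower and SDHB higher. The ETS motif was in 20 (30.3%, beside 18.9% and 10.7%). Of those 20, 8 were higher and 8 lower, with a median of 0.019. The 46 without it had 8 higher and 33 lower and a median of -0.25. Of all genes tested, 32.9% were lower and 44.4% higher. Directions were not counted for other genes with these motifs, so whether the ETS split is particular to the members is unknown. SDHD alone held the oestrogen-related receptor motif (1.52%, beside 0.165% and 0.359%). The pair NRF1 and ETS occurred together in SDHD (0.66), UQCR11 (-0.49) and ATP5ME (-0.59), whose promoters are printed above, and their directions differed. GENCODE 29 begins all 4 genes printed inside the windows shown, upstream of the RefSeq start. A match here is a description of letters and not of binding.

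Several of the factors that the motifs are named for differed between the lines themselves. Of 19 tested genes of mitochondrial biogenesis, 9 (47.4%) were higher in 231-BR cells and 4 (21.1%) lower, where 44.4% and 32.9% of all genes were, with a median log2 fold change of 0.16 that turned to -0.035 with quantile normalization. NRF1 was lower, at 6.10 ± 0.15 against 7.28 ± 0.31 FPKM (-0.25, adjusted p = 0.0011), as were the oestrogen-related receptor gene ESRRA (-0.69, adjusted p = 7.1e-07), the GABP subunit gene GABPB2 (-0.91, adjusted p = 4e-06) and SSBP1, which binds single-stranded mitochondrial DNA (-0.50, adjusted p = 2.1e-07). GABPA (0.097) and GABPB1 (-0.090), the other GABP genes, did not pass the test. YY1 was higher (0.32), and so were the mitochondrial transcription factor genes TFAM (0.28), TFB2M (0.93) and TFB1M (0.16), the elongation factor TEFM (0.33), the polymerase genes POLG (0.42) and POLG2 (0.41) and the helicase gene TWNK (0.42), while the mitochondrial RNA polymerase gene POLRMT (0.020) did not pass. The coactivator PPARGC1A was higher at a low level, 0.88 ± 0.078 against 0.53 ± 0.059 FPKM (0.64, adjusted p = 0.00093, SD over 3 libraries). PPARGC1B (0.18), PPRC1 (0.039) and MTERF1 (0.095) did not pass, and ESRRG stayed under the filter.

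The listed assembly factors, mostly proteins that help build the complexes without staying in them, differed in the other direction from the subunits. Of 55 tested, 33 were higher in 231-BR cells, 8 were lower and 14 did not pass, with a median log2 fold change of 0.21 that stayed above 0 with every scaling and filter tried (0.11 to 0.28). The shares called, 60.0% higher and 14.5% lower, compare with 44.4% and 32.9% of all genes. With quantile normalization the counts were 27 higher and 16 lower, where 35.8% and 42.7% of all genes were. With median-of-ratios scaling they were 28 and 15, where 39.0% and 38.5% of all genes were. The medians were 0.14 for the 18 factors of complex I, 0.38 for the 4 of complex II, 0.29 for the 6 of complex III, 0.21 for the 24 of complex IV and 0.39 for the 3 of complex V. With quantile normalization the complex I value fell to 0.012, that of complex II to 0.26, that of complex III to 0.15 and that of complex IV to 0.11.

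Among these factors, the complex II factor SDHAF4 had the largest rise, at 5.71 ± 0.27 FPKM in 231-BR and 2.78 ± 0.42 FPKM in MDA-MB-231 libraries (1.02, adjusted p = 5.8e-06, SD over 3 libraries). COX18, which inserts a complex IV core subunit into the membrane, was the next highest at 0.85 (adjusted p = 2.3e-06), and then ATPAF2, a chaperone of the ATP synthase alpha subunit, at 0.70 (adjusted p = 4.7e-05). The partner chaperone for the beta subunit, ATPAF1, was higher by 0.39. The lower ones were led by LRPPRC, which stabilises mitochondrial messenger RNA, at 47.6 ± 2.17 against 88.2 ± 1.10 FPKM (-0.89, adjusted p = 5.5e-09). NDUFAF7 (-0.66, adjusted p = 1.6e-05) and UQCC1 (-0.58, adjusted p = 2.2e-08) came next.

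Subunits and related genes that the symbol rule leaves out were mostly lower in 231-BR cells, though not all of them are subunits. Of 6 tested, 5 were lower (83.3%, beside 32.9% of all genes) and 1 higher, with a median of -0.21. C15orf48, a paralogue of NDUFA4 that can replace it in complex IV, had 1.51, 1.82 and 2.48 FPKM in 231-BR and 8.16, 7.64 and 7.72 FPKM in MDA-MB-231 libraries (-1.99, SE 0.14, adjusted p = 4.8e-07). NDUFA4 itself had 32.8, 34.4 and 33.3 FPKM against 39.4, 42.4 and 41.9 FPKM (-0.30, SE 0.035, adjusted p = 2.3e-05), so both paralogues were lower, without overlap. HIGD2A (-0.52), the electron carrier cytochrome c gene CYCS (-0.25) and HIGD1A (-0.16) were lower. NDUFAB1 was lower by little (-0.11, adjusted p = 0.043), with overlapping libraries. CYC1, which encodes the cytochrome c1 subunit of complex III, was higher (0.33, adjusted p = 7.5e-06).

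Other genes of mitochondrial metabolism and translation were called in both directions. The 19 genes of the tricarboxylic acid cycle and pyruvate entry gave 8 higher (42.1%), 8 lower (42.1%) and 3 not called, where 44.4% and 32.9% of all genes were called higher and lower, with a median of 0.046 that fell below 0 with median-of-ratios scaling, with quantile normalization and with a filter at 10 FPKM. PC, which makes oxaloacetate from pyruvate, was higher by 0.92, SUCLG2 by 0.84 and IDH2 by 0.60. PDHA1, a subunit of pyruvate dehydrogenase, was at -0.54, IDH3G at -0.52 and IDH3B at -0.34. FH, the enzyme that follows complex II in the cycle, was higher by 0.59. The 78 mitochondrial ribosomal proteins gave 38 higher (48.7%) and 25 lower (32.1%), near the 44.4% and 32.9% of all genes, with a median of 0.069, which turned to -0.014 with median-of-ratios scaling. The 82 cytosolic ribosomal proteins, another set of short and abundant transcripts, gave 55 lower (67.1%, beside 32.9% of all genes) and 18 higher, with a median of -0.20 that ran from -0.28 with median-of-ratios scaling to -0.062 with quantile normalization.

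**Figure D3:**
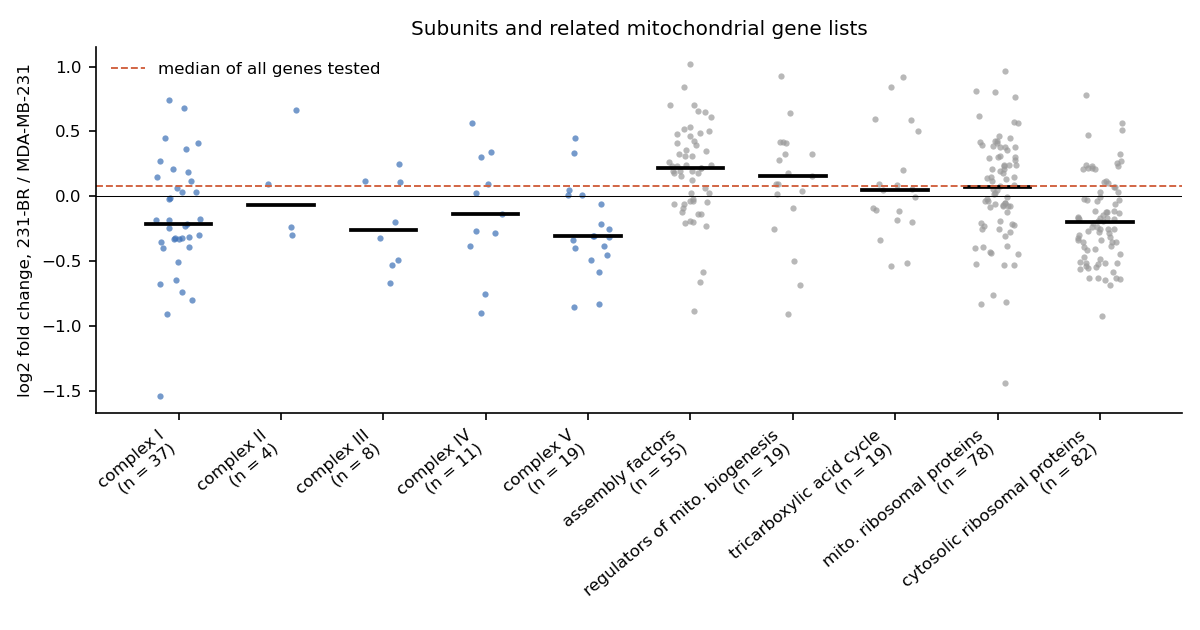
Log2 fold change (y axis, 231-BR over MDA-MB-231) of every gene tested in each list, the 5 complexes in blue and other lists in grey, with a thick line at each list's median and a dashed line at the median of all genes tested (0.077). The complex medians lie between -0.31 and -0.072, while the assembly factors lie at 0.21; the medians of the biogenesis regulators, the tricarboxylic acid cycle and the mitochondrial ribosomal proteins are above 0 here but change sign under at least 1 other scaling.

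The members are scattered over 22 chromosomes, and their differences followed those of the genes around them. For 78 members the median log2 fold change of 40 neighbouring genes, 20 on each side with a mean of at least 1 FPKM, was set beside the member's own. Across these members Pearson's r was 0.69 and Spearman's rho 0.76, and across all 11090 genes that could be placed they were 0.35 and 0.51. These correlations are descriptions across genes that share the same 6 libraries, and adjacent members share neighbours. The 78 members all averaged above 10 FPKM, while the placed genes reached down to a mean of 1 FPKM. No correlation was taken over the placed genes of at least 10 FPKM alone. All 20 members called higher had neighbours with a median above 0, and 32 of the 47 called lower had neighbours with a median below 0. The like shares over all genes called were not counted, so whether these counts are particular to the members is unknown.

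Several of the named members sat in such stretches. NDUFB7 (0.68) had a neighbour median of 0.95, COX7B (0.56) of 1.09, NDUFB9 (0.74) of 0.77 and SDHD (0.66) of 0.52. The 3 members on chromosome 8, NDUFB9, COX6C and UQCRB, were all higher in 231-BR cells. Near the end of the short arm of chromosome 19, ATP5F1D (chr19:1241746-1244826), NDUFS7 (chr19:1383527-1395589) and UQCR11 (chr19:1597172-1605490) lie within a short distance of each other and were all lower, with neighbour medians of -0.45, -0.37 and -0.47. On the same chromosome NDUFB7 (chr19:14566078-14572062) was higher. NDUFB2 (-0.91), COX7A2L (-0.90) and NDUFV2 (-0.68) also had lower neighbours, at -0.43, -0.45 and -0.46.

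Other members departed from their surroundings, and mostly downwards. Of the 78, 68 (87.2%) lay below their neighbour median and 10 above, with a median difference of -0.22. Among all placed genes 50.2% lay below, and among the 6304 placed genes with a mean of at least 10 FPKM 57.2% did. The share was 90.2% for cytosolic ribosomal proteins (74 of 82), 60.3% for mitochondrial ribosomal proteins (47 of 78) and 43.6% for assembly factors (24 of 55). NDUFB8 stood farthest below, by -1.62, since its neighbours had a median of 0.075. ATP5F1A (-0.86) followed, with a neighbour median of 0.47 and a gap of -1.33, and then NDUFA7 (-0.24 against 0.84), NDUFB4 (-0.18 against 0.59) and COX8A (-0.75 against -0.082).

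**Figure D4:**
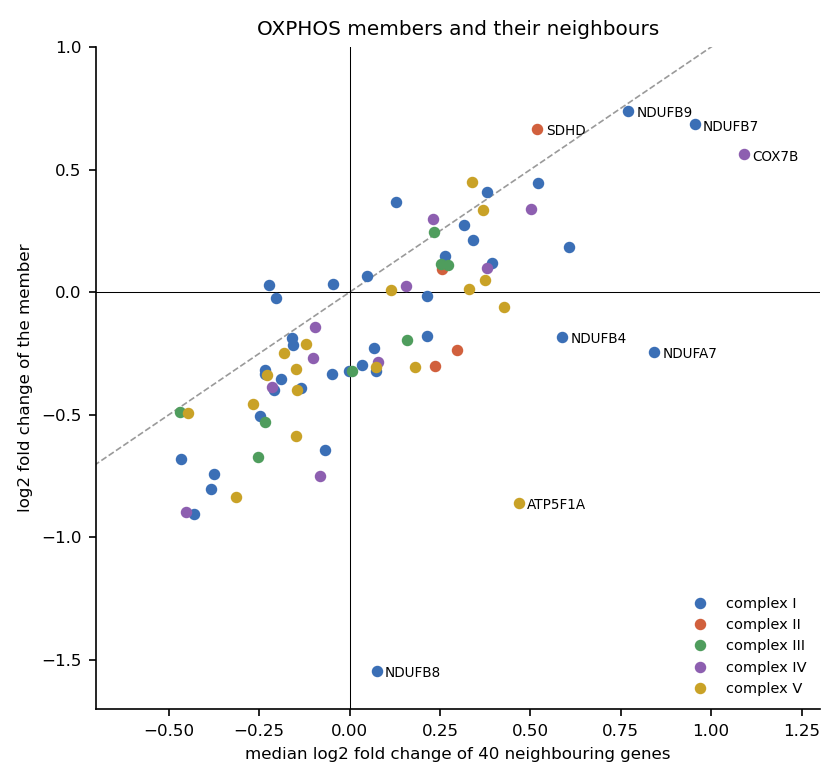
Log2 fold change of each of 78 members (y axis) against the median of the same value over 40 genes around it (x axis), coloured by complex, with a dashed line where both are equal. Of the 78 points 68 lie below the dashed line, NDUFB8 and ATP5F1A farthest, and the points rise together from lower left to upper right (Spearman's rho 0.76).

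The transcripts have features that bear on their measurement. The longest coding transcript of the members tested had a median of 1263 bases, against 3372 bases for all genes with a length, and FPKM divides by transcript length. Pseudogenes carrying the name of the gene are annotated for 45 of the 84 members, with 17 for COX6C and 12 each for NDUFB4 and NDUFA5, and reads from near-identical copies cannot be told apart from the gene's own in these values. Overlapping genes were annotated on the same strand for 19 of the 84 and on the other strand for 29. No source states that strand was kept in these libraries, so values of overlapping genes are uncertain to that extent. The part of these features in the differences was not tested.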

How the data were processed

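Poly(A) RNA was sequenced from 3 libraries of each line on a BGISEQ-500 with paired reads. The authors filtered reads with SOAPnuke and aligned them with HISAT2 (version 2.0.4) to the genome and Bowtie2 (version 2.2.5) to a gene set, and the submitters' processing notes name GRCh38.p12. The deposited values are FPKM per gene and library, already scaled to library size and transcript length. The program that computed them is not given in the sources used here. FPKM does not preserve depth, so precision was taken from the spread of replicates. The separate file of each library held the same values as its matrix column and was not used.

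Libraries were grouped by their titles. The cell line field of the labels carries a number that rises with the replicate and was not used. FPKM was transformed to log2(FPKM + 0.1), which understates fold changes of low genes, and genes with a mean of at least 0.1 FPKM were fitted with limma 3.58.1 (R 4.3.3; 1 factor, all 6 libraries, moderated variances with a trend). P-values were adjusted by Benjamini-Hochberg over all 13465 genes, and a call is an adjusted p under 0.05. The fit was tested on simulated data. Isoform shares were compared by exact 2-sided permutation. Gene positions, overlaps, pseudogenes and transcript lengths came from GENCODE 29, gene order and promoters from RefSeq tables (GRCh38.p14). One member is counted but not reported here by name. Values per library are given for members past 1.5-fold, those closest to 0 and the most and least abundant of each complex, and of other lists every regulator and otherwise the largest rises and falls. The symbol rule uses no measured value, but it, the choice of this gene family and the other lists were set with earlier results of these data known. Libraries with the same replicate number did not deviate together (r from -0.11 to 0.09), so no block entered the model. Other pseudocounts, filters, scalings, a fit without the trend, a replicate block and leaving out each library were tried.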

Additional observations from a re-analysis of the deposited data

How the results depend on the processing

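The count of members called higher was 20 and ranged from 14 to 25 over the alternatives, and the count called lower was 47 and ranged from 47 to 50. With 1 library left out, the counts were 18 to 21 higher and 47 to 48 lower, and past 1.5-fold 3 to 4 higher and 11 to 13 lower. The replicate numbers share only a name, and the replicate block gave 20 higher and 48 lower, the added call being ATP5MG (adjusted p = 0.043). Quantile normalization shifted the median of all genes by -0.14, and relative to that median the members stood at -0.31 as reported and at -0.12 after it.

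The median over the members (-0.24) became -0.32 with median-of-ratios scaling, -0.18 with quantile normalization and -0.17 when each library was rescaled to a common sum, and ran from -0.26 to -0.22 with 1 library left out. With median-of-ratios scaling the medians of complexes I to V were -0.30, -0.15, -0.34, -0.22 and -0.39. With a common sum they were -0.15, -0.0044, -0.19, -0.073 and -0.24. Quantile normalization gave -0.092 for complex IV and -0.25 for complex V, and counting NDUFA4 in complex IV gave -0.20. Leaving out 1 library moved complex V between -0.32 and -0.27, the latter without 231-BR replicate 1. The COX6B2 share differed by -0.0072 percentage points, from -0.021 to 0.012 with 1 library left out, the sign turning without MDA-MB-231 replicate 1.

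Among single members, 10 changed sign under some alternative, and each of them was among the 12 not called as reported. With median-of-ratios scaling the log2 fold changes turned to -0.054 for NDUFA8, -0.047 for NDUFA5, -0.015 for NDUFS1, -0.057 for COX5B, -0.072 for ATP5PO, -0.070 for ATP5MD and -0.034 for ATP5MC1. Quantile normalization gave 0.0077 for NDUFB5, -0.042 for NDUFA5 and 0.032 for ATP5MG, and a common sum gave 0.045 for NDUFA10, 0.052 for NDUFB5 and 0.0057 for ATP5MG. With 1 library left out, NDUFA10 ran from -0.055 to 0.0067 (above 0 without 231-BR replicate 1 or, at 0.0013, MDA-MB-231 replicate 3), NDUFA8 from -0.017 (without 231-BR replicate 3) to 0.082, COX5B from -0.018 (without MDA-MB-231 replicate 1) to 0.074, ATP5PO from -0.038 (without MDA-MB-231 replicate 1, and -0.0022 without 231-BR replicate 3) to 0.053, and ATP5MD from -0.033 (without MDA-MB-231 replicate 2, and -0.0032 without replicate 1) to 0.075. The call was lost under some alternative for 6 members, NDUFS3, NDUFC1, SDHB, UQCRFS1, UQCRB and COX5A, and gained for 9 of those not called. The cause was not tested. The remaining 1209 values kept their direction and their side of the threshold. Without counts, the limit that depth sets on these values could not be given.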
